A study of Rattus norvegicus with 10 samples.

Results

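The transient receptor potential (TRP) channels described here are 9 rat genes, Trpv1, Trpv2, Trpv4, Trpc1, Trpc4, Trpc5, Trpc6, Trpm4 and Trpm7, several of which have been studied as sensors of osmotic or mechanical stimuli. Members were selected by gene symbol: every probe set that is not an array control and whose platform annotation gives exactly 1 symbol equal to a member was taken, which gave 12 probe sets for the 9 genes, out of 31042 probe sets and 14217 named genes in all. Trpv1 has 3 of them, Trpm7 has 2 and the other genes have 1 each. A further probe set carries the symbols of both Trpv1 and Trpv4 and was left out by the rule.

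The RNA came from the hypothalamic paraventricular nucleus of male Sprague Dawley rats, 10 to 12 weeks old. One group had been dehydrated for 3 days and the other was the control group. Each group held 5 pools of tissue from 5 animals, and every pool had its own Affymetrix Rat Genome 230 2.0 array. All sample labels give the paraventricular nucleus and were followed, although the series' design text once gives the supraoptic nucleus. The labels describe the pools as separate groups of animals. A pool of dissected tissue holds many cell types, so fewer cells of a type and less RNA per cell cannot be told apart.

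TRP channels are cation channels built of 4 subunits that open to chemical, thermal, mechanical or lipid signals and depolarise the cell, most of them letting calcium in. The vanilloid members (TRPV) include the capsaicin receptor Trpv1, of which an N-terminally truncated form has been studied as the osmosensing channel of vasopressin neurons, and Trpv4, which opens when cells swell. The canonical members (TRPC) open downstream of receptors that couple through Gq proteins to phospholipase C, and the melastatin members (TRPM) include channels gated by intracellular calcium and channels fused to a kinase. The vasopressin and oxytocin neurons of the nucleus fire more when plasma becomes concentrated, and the comparison asks which of the channel transcripts differ after 3 days without water.

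No TRP channel probe set passed the test for a difference between dehydrated and control pools. Values are signals in the linear units of the array software, and differences are on the log2(signal + 3.72) scale, dehydrated minus control, with the standard error of the fit. A probe set was tested if its mean signal over the 10 arrays was at least 24.1, the 40th percentile of all. Of the 12 probe sets 5 passed this filter, standing for Trpv2, Trpc1, Trpc4 and Trpm7, and all 7 of Trpv1, Trpv4, Trpc5, Trpc6 and Trpm4 lay under it. Of the 5 tested, 0 had an adjusted p under 0.05 (limma, two-sided, Benjamini-Hochberg over all 18629 probe sets tested), where 0.58% of all probe sets did. Before adjustment 2 of the 5 had a limma p under 0.05, those of Trpc4 and of 1 Trpm7 probe set, against 12.7% of all probe sets tested. The dehydrated and control pools overlapped in every one of the 12, while they were fully apart in 3.36% of the tested probe sets and in 2.52% of all.

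**Figure D1:**
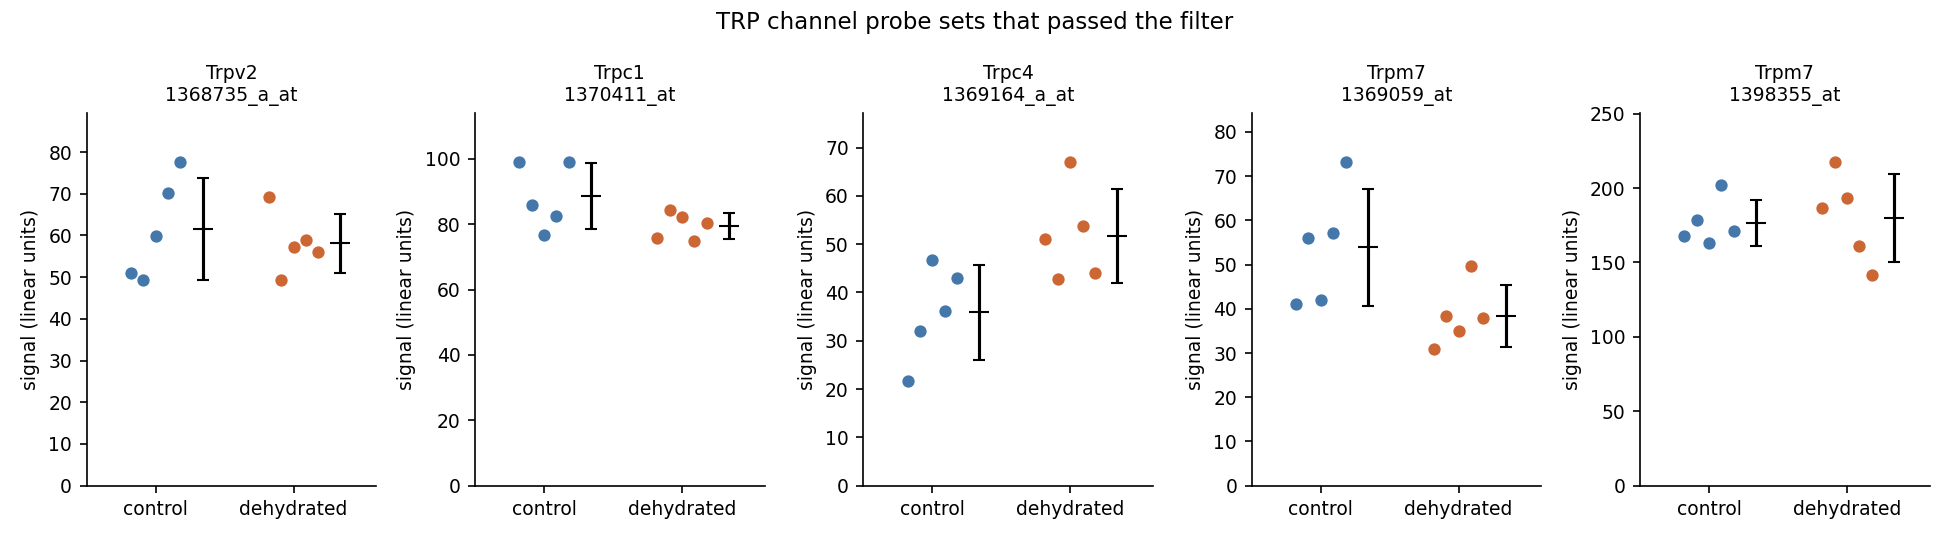
Signal of the 5 TRP channel probe sets that passed the filter, in linear units from 0, 1 panel per probe set. Points are pools (5 control in blue, 5 dehydrated in orange) and bars are mean ± SD. The Trpc4 points are higher in dehydrated pools and those of Trpm7 probe set 1369059_at lower, and in every panel the groups overlap.

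Trpc4 had the largest difference among the tested probe sets. Trpc4 encodes a receptor-operated calcium-permeable channel opened through Gq and phospholipase C. Its signals (probe set 1369164_a_at) were 51.0, 42.8, 67.1, 53.7 and 44.0 in dehydrated replicates 1 to 5, and 21.6, 32.0, 46.8, 36.2 and 42.9 in control replicates 1 to 5. All 5 dehydrated pools lay above the control mean and 3 of them above every control pool, while control replicates 3 and 5 reached into the dehydrated range. The group means were 51.7 ± 9.75 and 35.9 ± 9.84 (SD, n = 5 each). The log2 difference was 0.51 ± 0.18, with a 95% interval from 0.13 to 0.89, an unadjusted limma p of 0.012 and an adjusted p of 0.248. In the 19 alternatives run for it the difference stayed positive, from 0.22 to 0.61, and the adjusted p ran from 0.164 to 0.436. Of these, no filter, no trend and a robust fit cannot change the difference, only its error and p. Without control replicate 1, the lowest pool, the difference was 0.36.

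Trpm7 encodes a channel joined to a protein kinase that carries magnesium, calcium and zinc and is made by most cells. Its 2 probe sets did not give the same picture. Probe set 1369059_at had signals of 30.9, 38.3, 34.9, 49.7 and 37.9 in dehydrated replicates 1 to 5 and 41.1, 56.0, 41.9, 57.1 and 73.3 in control replicates 1 to 5. All 5 dehydrated pools lay below the control mean and 4 of them below every control pool, with dehydrated replicate 4 inside the control range. The means were 38.3 ± 7.01 and 53.9 ± 13.2 (SD, n = 5 each). The log2 difference was -0.44 ± 0.16 with a 95% interval from -0.78 to -0.09, an unadjusted limma p of 0.0159 and an adjusted p of 0.273. Without control replicate 5, the highest pool of all, the difference was -0.33, and in all 19 alternatives it was negative, with adjusted p from 0.232 to 0.417. As for Trpc4, these include settings that cannot change the difference.

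Trpm7 probe set 1398355_at had signals of 186.8, 217.8, 193.4, 161.1 and 141.6 in dehydrated replicates 1 to 5 and 167.7, 178.4, 163.2, 201.8 and 171.2 in control replicates 1 to 5. The dehydrated pools held both the highest and the lowest of the 10 values, and the groups overlapped. The means were 180.1 ± 29.5 and 176.5 ± 15.2 (SD, n = 5 each), and the log2 difference was 0.02 ± 0.10 with a 95% interval from -0.20 to 0.24 (adjusted p = 0.959 in limma). The sign of this difference turned under median centring and without any of 3 arrays.

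The disagreement of the Trpm7 probe sets was itself compared, by a test chosen after their values were seen. Within each array the log2 value of 1369059_at minus that of 1398355_at was -2.13 ± 0.38 in dehydrated and -1.67 ± 0.30 in control pools (SD, n = 5 each). The dehydrated pools spanned -2.46 to -1.63 and the controls -1.94 to -1.18, and 3 of 5 dehydrated pools lay below every control. The group difference of -0.46 had an exact two-sided permutation p of 0.0873 over 252 assignments, where the smallest possible p is 0.00794. With both probe sets averaged into 1 value per gene, the Trpm7 difference was -0.21 ± 0.11 (adjusted p = 0.438 in limma over 10184 genes).

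Trpc1 and Trpv2 showed smaller differences. Trpc1 encodes a canonical subunit that assembles with Trpc4 and Trpc5 into mixed channels. Its signals were 75.8, 84.3, 82.3, 75.0 and 80.3 in dehydrated and 99.2, 85.9, 76.6, 82.4 and 99.0 in control replicates 1 to 5. All 5 dehydrated pools lay below the control mean, and 3 control pools lay above every dehydrated pool, but the lower controls fell within the dehydrated range. The means were 79.5 ± 4.05 and 88.6 ± 10.1 (SD, n = 5 each), a log2 difference of -0.14 ± 0.10 with a 95% interval from -0.35 to 0.06 (adjusted p = 0.568 in limma).

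Trpv2 encodes a vanilloid channel that opens to strong heat and to stretch of the membrane. Of the vanilloid channels among the 9 genes described here, it was the only one to pass the filter. Its signals were 69.1, 49.4, 57.2, 58.9 and 56.0 in dehydrated and 50.9, 49.2, 59.8, 70.2 and 77.7 in control replicates 1 to 5. The groups lay across each other, and the controls spread more widely, with control replicate 5 highest. The means were 58.1 ± 7.12 and 61.6 ± 12.3 (SD, n = 5 each), and the log2 difference was -0.07 ± 0.14 with a 95% interval from -0.35 to 0.22 (adjusted p = 0.877 in limma). As a fold, this interval runs from 0.783 to 1.17. For Trpc1 the same bounds are 0.784 and 1.05, and for Trpm7 probe set 1398355_at they are 0.868 and 1.18. For Trpc4 the fold was 1.42 with bounds of 1.09 and 1.85, and for Trpm7 probe set 1369059_at it was 0.738 with bounds of 0.581 and 0.937.

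The probe sets annotated to Trpv1 and Trpv4 had signals in the range of the array's bacterial controls. The array carries 27 control probe sets for genes of Bacillus subtilis, which rat RNA does not hold. Whether their transcripts were added to these samples was not given in the sources used here. Over the 10 arrays their signals ran from 0 to 19.3, with a median of 1.5 and a 95th percentile of 9.66. This range is given as a gauge of the array's low end and is no detection call, since probe sets differ in how strongly they bind. The tested TRP channel probe sets lay above 19.3 on all 10 arrays.

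**Figure D2:**
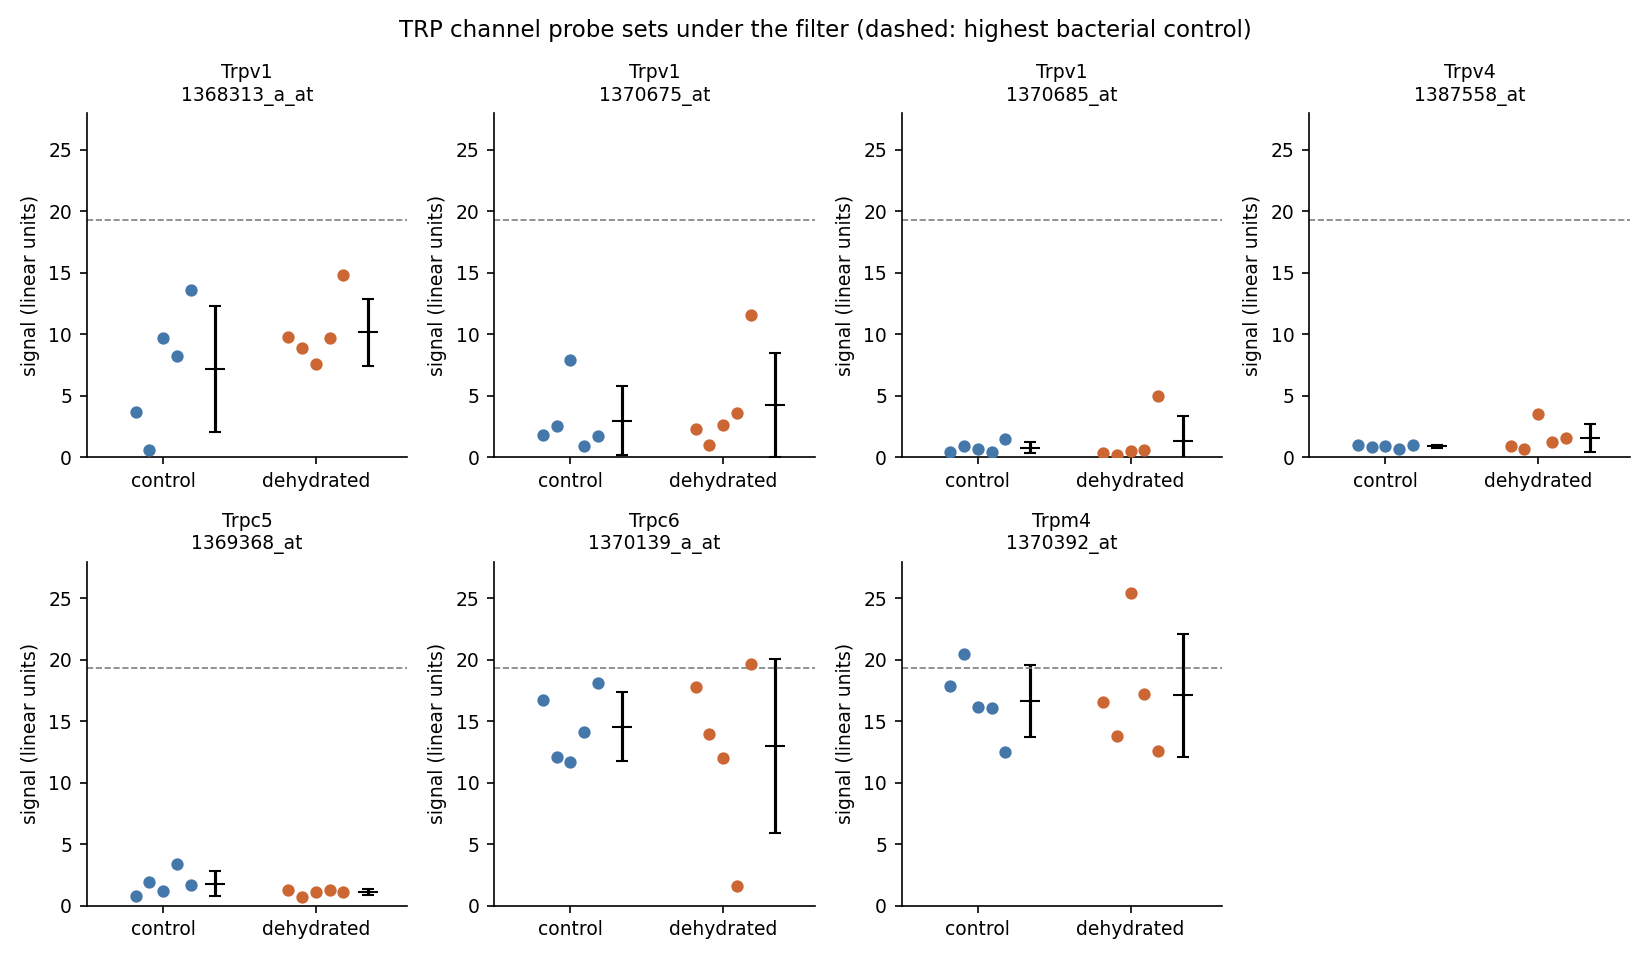
Signal of the 7 TRP channel probe sets under the filter, in linear units on 1 common scale. Points are pools (5 control in blue, 5 dehydrated in orange), bars are mean ± SD and end at 0 where they would pass below it, and the dashed line marks 19.3, the highest bacterial control value. All Trpv1, Trpv4 and Trpc5 points lie below the line, and 1 point of Trpc6 and 2 of Trpm4 lie above it.

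Trpv1 was covered by 3 probe sets, all of them dim. They are assigned by gene symbol, and whether any of them reads the N-terminally truncated form is not known here. Probe set 1368313_a_at had signals of 9.8, 8.9, 7.6, 9.7 and 14.8 in dehydrated and 3.7, 0.6, 9.7, 8.2 and 13.6 in control replicates 1 to 5. All 5 dehydrated pools lay above the control mean, and 2 controls lay below every dehydrated pool, while the other controls lay among the dehydrated pools. The means were 10.2 ± 2.74 and 7.16 ± 5.10 (SD, n = 5 each), and the fit with no filter on low signals gave a log2 difference of 0.49 ± 0.33 with a 95% interval from -0.23 to 1.199 (adjusted p = 0.639 in limma over 31042 probe sets). Without control replicate 2, the pool at 0.6, the difference was 0.19, and with other pseudocounts it ran from 0.066 to 0.78. In that fit 0.206% of all probe sets passed, and 0 of the 7 under the filter did. Probe set 1370675_at had means of 4.22 ± 4.23 and 2.96 ± 2.82 and probe set 1370685_at means of 1.32 ± 2.06 and 0.78 ± 0.45 in dehydrated and control pools (SD, n = 5 each). Their log2 differences were 0.20 ± 0.32 and 0.09 ± 0.22 (adjusted p = 0.866 and 0.914 in limma with no filter).

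Dehydrated replicate 5 was the highest of the 10 arrays on all 3 Trpv1 probe sets, at 14.8, 11.6 and 5.0. It was also the highest on the dim probe set of Trpc6, at 19.7. On probe set 1370685_at the other 4 dehydrated pools ran from 0.2 to 0.6. The mean of the 3 Trpv1 probe sets differed by 0.26 ± 0.25 between the groups (adjusted p = 0.746 in limma over 14217 genes, with no filter).

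Trpv4 was at the lowest end of the scale. Its signals were 0.9, 0.7, 3.5, 1.2 and 1.6 in dehydrated and 1.0, 0.8, 0.9, 0.7 and 1.0 in control replicates 1 to 5. Dehydrated replicates 3, 4 and 5 lay above every control, and the other dehydrated pools lay within the control range, and all 10 signals were under the pseudocount of 3.72. The log2 difference was 0.18 ± 0.17 with a 95% interval from -0.19 to 0.56 (adjusted p = 0.753 in limma with no filter). Without dehydrated replicate 3, the highest pool, the difference was 0.064, and with other pseudocounts it ran from 0.016 to 0.38.

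The remaining dim members were Trpc5, Trpc6 and Trpm4. Trpc5, a close relative of Trpc4 that is also opened through Gq-coupled receptors, ran from 0.7 to 1.3 in dehydrated and from 0.8 to 3.4 in control pools, a log2 difference of -0.18 ± 0.17 (adjusted p = 0.751 in limma with no filter) that was -0.083 without control replicate 4, the pool at 3.4. Trpc6, which diacylglycerol opens directly, had signals of 17.8, 14.0, 12.0, 1.6 and 19.7 in dehydrated and 16.7, 12.1, 11.7, 14.1 and 18.1 in control replicates 1 to 5. Its dehydrated replicate 4 was far below the other 9 arrays, and without that pool the log2 difference of -0.27 ± 0.35 (adjusted p = 0.822 in limma with no filter) became 0.10. Trpm4, a calcium-activated channel that carries monovalent cations only, had means of 17.1 ± 5.01 in dehydrated and 16.6 ± 2.92 in control pools (SD, n = 5 each). Its log2 difference was 0.02 ± 0.21 with a 95% interval from -0.43 to 0.47 (adjusted p = 0.987 in limma with no filter), and the sign turned under 5 of 18 alternatives.

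**Figure D3:**
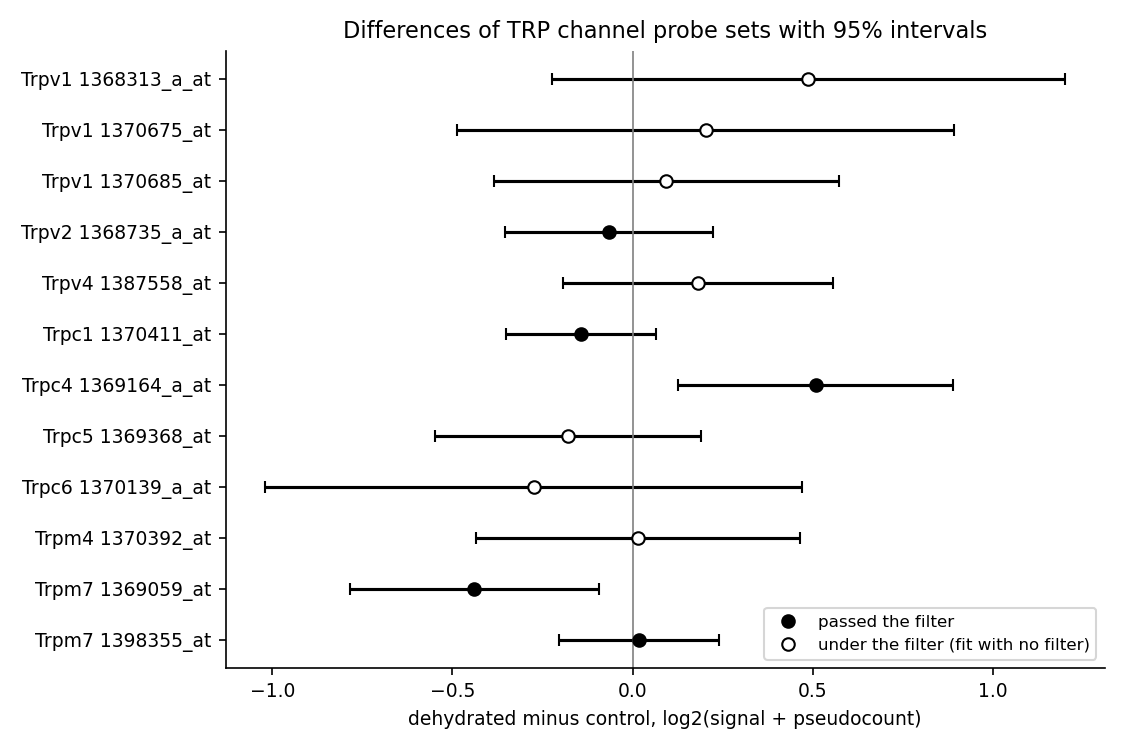
Log2 difference, dehydrated minus control, of each TRP channel probe set (circle) with its 95% interval (bar). Filled circles passed the filter, open circles are from the fit with no filter. The intervals of Trpc4 (0.13 to 0.89) and of Trpm7 probe set 1369059_at (-0.78 to -0.09) do not reach 0, before any adjustment for the number of probe sets.

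The spread between pools differed among the tested channels. As a coefficient of variation over 5 pools it was 5.09% in dehydrated and 11.4% in control pools for Trpc1, and 18.8% and 27.4% for Trpc4. For Trpv2 it was 12.2% and 19.97%. Trpm7 had 18.3% and 24.5% on probe set 1369059_at but 16.4% and 8.62% on probe set 1398355_at. Of these 5 probe sets, 4 varied more in control than in dehydrated pools. The share of all probe sets tested that did so was not counted. Control replicate 5, which had the lowest array weight in limma (0.385 against 0.745 to 1.59 for the others), was the highest array on 2 of the 5, those of Trpv2 and Trpm7 1369059_at.

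The genes whose signals followed the members most closely over the 10 arrays were named by Pearson's r of the log2 values, for the 3 tested genes of the highest mean signal, among 13594 tested probe sets with 1 symbol. They are a description only, the highest of 13594 values over 10 points each. For Trpm7 (1398355_at) they were Eif1a (r = 0.97, Spearman's rho = 0.94) and Cfap97 (r = 0.91, rho = 0.88). For Trpc1 they were Ttyh1 (r = 0.95, rho = 0.94) and Ap5z1 (r = 0.90, rho = 0.89). For Trpv2 they were Dram1 (r = 0.93, rho = 0.87) and Letm2 (r = 0.92, rho = 0.93). Without the 2 arrays farthest from the member's median, these 6 values of r ran from 0.83 to 0.95.

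Other TRP channel genes also gave no call. Of 19 listed genes 10 had a probe set with 1 symbol and 5 were tested, of which 0 rose, 0 fell and 5 did not pass, with 0 at an unadjusted p under 0.05 in limma. The median log2 difference of the 5 tested was -0.08, where that of all probe sets tested was -0.0048, and 4 of the 5 were negative. Trpm3, a steroid-sensitive and heat-sensitive channel, had 140.2 ± 13.9 in dehydrated and 154 ± 5.66 in control pools (log2 -0.14 ± 0.08, adjusted p = 0.512 in limma). The polycystin channel gene Pkd2 had 230 ± 16.2 and 250.3 ± 20.7 (log2 -0.12 ± 0.08, adjusted p = 0.529), and the epithelial calcium channel gene Trpv5 differed by -0.08 ± 0.12 (adjusted p = 0.818). The lysosomal channel gene Mcoln1 (0.04) and Trpc2 (-0.05) made up the rest, while Trpv6, Trpm1, Trpm8, Mcoln2 and Pkd2l2 lay under the filter. These 5 were not tested, and the mean signal of each was higher in dehydrated than in control pools. Trpm1 had 22.56 ± 2.36 in dehydrated and 17.88 ± 2.04 in control pools, and Trpm8 had 1.56 ± 0.44 and 1.4 ± 0.51. The list as a whole therefore showed no common direction.

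Among the genes of Gq, phospholipase C and store-operated calcium signalling, none passed (0 of 18 tested). The list held 23 genes of Gq proteins, phospholipase C, phosphoinositide and diacylglycerol kinases, inositol trisphosphate receptors and store-operated calcium entry. Of these 18 were tested, of which 0 rose and 0 fell. The Gq gene Gnaq lay under the filter, with 17.2 ± 4.27 in dehydrated and 17.4 ± 7.97 in control pools. Of the 18, 2 had an unadjusted limma p under 0.05. The median log2 difference was 0.00079, with 9 positive and 9 negative. The diacylglycerol kinase gene Dgkb had 350 ± 21.7 in dehydrated and 302 ± 6.44 in control pools (log2 0.21 ± 0.06, adjusted p = 0.170 in limma). The phospholipase gene Plcb3 had 36.0 ± 17.4 and 56.5 ± 10.7 (log2 -0.81 ± 0.36, adjusted p = 0.368), and Plcb4 differed by 0.12 ± 0.06 (adjusted p = 0.424). The calcium store sensors Stim1 and Stim2 stood at -0.0079 and -0.04, and the pore subunit gene Orai1 at 0.23.

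Binding partners, kinases and lipid enzymes gave no call either. Of 22 tested partners and kinases 0 rose and 0 fell, 4 had an unadjusted p under 0.05 in limma, and the median log2 difference was -0.02. Abcc9, a sulfonylurea receptor subunit, had the smallest p, with 43.5 ± 5.20 in dehydrated and 61.2 ± 7.85 in control pools (log2 -0.46 ± 0.12, adjusted p = 0.107). The same Abcc9 probe set is also among the pericyte and smooth muscle markers read below. The immunophilin Fkbp5 differed by 0.35 ± 0.11 (adjusted p = 0.163) and Pacsin2, of the family of membrane-bending proteins that bind Trpv4, by -0.21 ± 0.08 (adjusted p = 0.278). Of 9 endovanilloid and endocannabinoid genes 6 had a probe set with 1 symbol, and Faah, Napepld and Dagla had none. Of the 6, 3 were tested (Cnr1, Daglb and Mgll) and 0 passed. The cannabinoid receptor Cnr1 had 462 ± 30.0 in dehydrated and 391 ± 32.3 in control pools (log2 0.24 ± 0.07, adjusted p = 0.150). The lipoxygenase genes Alox5, Alox12 and Alox15, whose products can open Trpv1, lay under the filter.

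Other mechanosensitive and volume-regulated channels gave no call. Of 17 genes 13 were tested, 0 rose and 0 fell, 1 had an unadjusted p under 0.05 in limma, and the median log2 difference was -0.07. The water channel Aqp4, which is also among the astrocyte markers read below, differed by -0.16 ± 0.06 (adjusted p = 0.249). The volume-regulated anion channel subunits Lrrc8a and Lrrc8c differed by 0.11 ± 0.06 and 0.14 ± 0.10 (adjusted p = 0.457 and 0.568). The stretch-activated channel genes Piezo1 and Piezo2 lay under the filter, with signals of 21.1 ± 6.23 and 2.70 ± 1.43 in dehydrated and 19.9 ± 3.17 and 1.52 ± 0.46 in control pools (SD, n = 5 each).

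**Figure D4:**
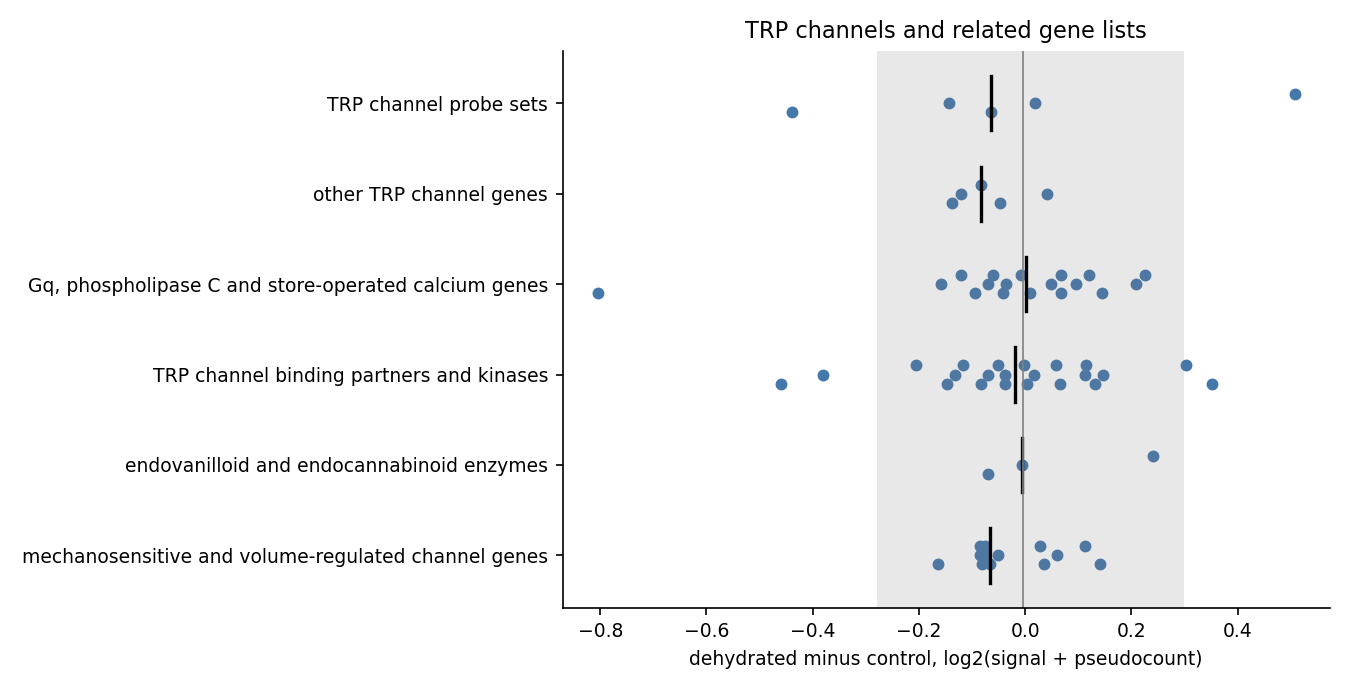
Log2 difference, dehydrated minus control, of the 5 tested TRP channel probe sets and of the tested genes of 5 related lists, 1 probe set per gene. Points are probe sets, black lines are medians, the grey line is the median of all 18629 tested probe sets and the grey band runs from their 5th to their 95th percentile (-0.28 to 0.30). Among the TRP channel probe sets only Trpc4 and Trpm7 1369059_at lie outside the band. They are the dimmest of the 5 (mean signals 43.8 and 46.1), with the largest standard errors (0.18 and 0.16). The median standard error of all tested probe sets is 0.12, and the band is not matched for signal.

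Marker genes of the tissue and of other cells were also read. Avp and Oxt, the hormone genes of magnocellular neurons, had signals of 4956 ± 642 and 4861 ± 605 in dehydrated pools. In control pools they had 3531 ± 633 and 4090 ± 389 (SD, n = 5 each). Supraoptic magnocellular neurons make both too, so they cannot tell the paraventricular from the supraoptic nucleus. The parvocellular genes Crh and Trh had 320 ± 89.7 and 651 ± 44.7 in dehydrated pools, and 282 ± 94.3 and 615 ± 56.5 in control pools. Otp and Pou3f2 lay under the filter and were not tested. Otp had 14.2 ± 3.37 in dehydrated and 5.66 ± 2.63 in control pools, and Pou3f2 0.72 ± 0.22 and 0.62 ± 0.18 (SD, n = 5 each). All 7 tested marker genes of the nucleus were higher in dehydrated pools, where 48.8% of all probe sets tested were higher. The 1 past the threshold was Pdyn (log2 0.81 ± 0.10, adjusted p = 0.00057 in limma). The others were Cck (0.70 ± 0.16), Avp (0.50 ± 0.11), Sim1 (0.35 ± 0.17), Oxt (0.24 ± 0.08), Crh (0.19 ± 0.20) and Trh (0.08 ± 0.07). More tissue of the nucleus in a pool and more of these transcripts per cell cannot be told apart. In the same pools 10 of 11 oligodendrocyte genes were lower (median log2 -0.28, 1 past the threshold), with summed signals of 7378 to 7644 in dehydrated and 7925 to 9584 in control pools. Of 7 tested genes of neighbouring hypothalamus 5 were lower (median -0.12), of 10 astrocyte genes 7 (median -0.10), of 7 microglial genes 6 (median -0.08) and of 5 choroid plexus genes 3 (median -0.15), while 9 of 11 endothelial genes were higher (median 0.17) and pericyte (0.06) and ependymal (0.0029) medians lay near 0. Summed signals of the neighbouring hypothalamus genes ran from 4199 to 6930 in dehydrated and from 4622 to 8131 in control pools, and those of the endothelial genes from 1587 to 1754 and from 1292 to 1746. The largest differences among the neighbouring genes were those of hypocretin (Hcrt), with 661 ± 377 in dehydrated and 1586 ± 875 in control pools (log2 -1.28 ± 0.44), Hdc (-0.67 ± 0.19) and Nkx2-1 (-0.50 ± 0.16). These 3 had an unadjusted limma p under 0.05 and adjusted p from 0.135 to 0.233. The 2 neighbouring genes that were higher, Pmch and Npy, differed by 0.02 ± 0.11 and 0.05 ± 0.08. Pmch was the brightest of the list, with 3958 ± 794 in dehydrated and 3867 ± 462 in control pools. Of the 2 tested red blood cell genes both were lower, 1 of them past the threshold, with sums of 304.1 to 568.5 and 562 to 769. The part of these differences in the Trpc4 and Trpm7 values was not tested. Array medians ran from 36.4 to 39.1, and pairwise correlations of the arrays from 0.961 to 0.986.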

How the data were processed

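The authors deposited linear probe set intensities. GCOS 1.2 is the software that the submitters' processing notes name. Its signal algorithm, background step and presence calls are not given in the sources used here. A 2% trimmed mean was 100.03 to 100.06 on every array, so the arrays had been scaled to a common level. Of 31099 probe sets 57 controls were left out, and 20826 of the rest had 1 symbol. The symbols of all 9 members were current in the rat RefSeq table, which was used for names only. No genome build or probe sequence was used.

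Intensities were taken as log2(signal + 3.72), the pseudocount being 0.1 of the median array median, so folds of dim probe sets come out too small. The comparison used limma 3.58.1 in R 4.3.3 (lmFit, then eBayes with a trend) and no covariates. Replicates were numbered in accession order and pair nothing. The sample titles are codes whose numbers are consecutive within each group except for control replicate 5. If these numbers follow the order of the arrays, any batch of arrays and the groups cannot be told apart. The number of arrays limits the precision. The script was tested on simulated data.

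Members and lists were chosen with earlier results of these data known. Named were all member probe sets, up to 3 genes per list with the smallest p (each represented by its brightest probe set on average), and 2 genes most like each of 3 members. Genes outside this rule (Mcoln1, Trpc2, Stim1, Stim2, Orai1, the genes under the filter and the markers) were named after their values were seen. Alternatives were other pseudocounts, no filter or a 60th percentile filter, median centring, quantile normalization, array weights, a robust fit, no trend, leaving out 1 array at a time, and gene means. For probe sets under the filter, these were repeated without the filter, a choice made after seeing the data.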

Additional observations from a re-analysis of the deposited data

Results flagged for a closer look

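In 3 of the 24 combinations of member probe set and group, 1 pool stood apart by Dixon's criterion for 5 samples (0.71). For normally distributed values chance gives about 1 in 20. All 3 lay in dim Trpv1 probe sets. The criterion was applied to linear signals, and for signals this close to 0 that rate need not hold. On 1370675_at dehydrated replicate 5 had 11.6 where the other dehydrated pools had 1.0 to 3.6, and control replicate 3 had 7.9 where the other controls had 0.9 to 2.5. On 1370685_at dehydrated replicate 5 had 5.0 where the others had 0.2 to 0.6.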

How the results depend on the processing

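No TRP channel probe set passed (0) under any of the 20 alternatives to the fit, although the 60th percentile filter left out Trpc4 and Trpm7 1369059_at. Over 226 refits of single members, 212 kept the direction, and the smallest adjusted p was 0.164. A change of filter, no trend and a robust fit leave the difference itself as it is. Refits with these settings, which are among the 212, kept the direction by construction. The sign turned for Trpm4 under median centring (-0.0033), quantile normalization (-0.055) and array weights (-0.016), all with no filter, and for Trpm7 1398355_at under median centring (-0.0010). The Trpm7 gene mean (-0.21) was counted as turned against 1398355_at, but it also holds the values of 1369059_at and is no refit of 1398355_at alone. With each array left out in turn, differences ran from -0.11 to 0.10 for Trpm4 (-0.063 without control replicate 5), from -0.053 to 0.10 for Trpm7 1398355_at, from -0.44 to 0.10 for Trpc6, from -0.067 to 0.42 for Trpv1 1370675_at, from -0.12 to 0.17 for Trpv1 1370685_at and from -0.14 to 0.019 for Trpv2, which turned the sign in each. The Trpm7 probe set comparison ran from -0.58 to -0.33, with exact permutation p from 0.0397 to 0.183. The count over all probe sets was 108, and it was 64 with no filter, 45 without the trend, 201 with array weights and 46 to 148 with 1 array left out. The cause was not tested. No paired analysis was possible because the labels carry no replicate numbers.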
